A study of Mus musculus with 40 samples.

Results

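Primary bile acids are made from cholesterol in hepatocytes, and the genes described here encode 10 enzymes of that synthesis: Cyp7a1, Cyp8b1, Cyp27a1, Cyp7b1, Cyp39a1, Hsd3b7, Akr1d1, Amacr, Baat and Slc27a5. They were chosen by name as enzymes of this synthesis, but with earlier results of these data known. All 10 were found among the 55359 gene rows of the count tables. Of these, 9 passed the filter on low counts, and Hsd3b7 did not because it was listed at 0 in all 40 libraries. Livers came from male C57BL/6 mice that were 30 days old at the start and 58 days old at the end, after 28 days of oral gavage with 1 treatment every 4 days. The 8 groups held 5 mice each, with vehicle mice given sesame oil alone and the others TCDD in that oil, at 30, 10, 3, 1, 0.3, 0.1 or 0.03 μg/kg. TCDD, the dioxin 2,3,7,8-tetrachlorodibenzo-p-dioxin, is a persistent pollutant that binds the aryl hydrocarbon receptor (AhR) and so activates transcription of its target genes. All gavages and collections took place in the first hours of the light phase, so that each mouse gives a single time of day, and all mice were of 1 sex.

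Bile acids emulsify dietary lipid, and their synthesis is the main route by which cholesterol is broken down. In the classical pathway Cyp7a1 hydroxylates cholesterol itself, whereas in the alternative pathway an oxysterol is formed first, by Cyp27a1 among others, and is then hydroxylated by Cyp7b1 or Cyp39a1. The ring is next modified by Hsd3b7 and Akr1d1, Cyp8b1 decides how much cholic acid is made, peroxisomal enzymes with Amacr shorten the side chain, and Slc27a5 and Baat couple the bile acid to taurine or glycine. Bile acids that return to the liver hold their own synthesis back through the receptor FXR (Nr1h4), its target SHP (Nr0b2) and the intestinal hormone FGF15, and Cyp7a1 also follows a daily rhythm.

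The libraries held 15.5 to 21.0 M counts assigned to genes, with a median of 17.5 M. The AhR targets Cyp1a1 and Cyp1a2 were called higher at every TCDD dose from 0.03 μg/kg on, and Tiparp at 3, 10 and 30 μg/kg. Of 8 hepatocyte markers, 7 were called lower at 30 μg/kg, and markers of other liver cell types rose, as given with the cell types at the end. The 30 μg/kg liver numbered replicate 1 stood apart from the other four on the first principal component (score 81.7 against 129 to 147), so results that rest on it are given with and without it. Because a whole liver sample was sequenced, fewer cells of a type and less RNA per cell cannot be told apart.

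TCDD at 30 μg/kg lowered the transcripts of 7 of the 9 enzymes tested, raised 1 and left Cyp7a1 uncalled. Called here means a change of at least 1.5-fold against vehicle and an adjusted p (Benjamini-Hochberg, edgeR quasi-likelihood test over all 15373 genes tested) under 0.05. By this rule 42.1% of all genes were called at 30 μg/kg, 18.9% lower and 23.2% higher, against 8 of 9 enzymes, 7 lower and 1 higher. The median log2 fold change of the 9 enzymes was -1.57, beside 0.03 for all genes. At 10 μg/kg 2 of 9 enzymes were called, both lower, where 21.8% of all genes were called and 8.13% were lower. At 3 μg/kg 1 of 9 was called, and it was lower, where 6.75% of all genes were called and 2.22% were lower. None was called by edgeR or by DESeq2 at 0.03, 0.1, 0.3 or 1 μg/kg, where 0.0195%, 0.0976%, 0.468% and 2.78% of all genes were called. At these 4 doses 0, 2, 0 and 1 of the 9 enzymes had an unadjusted p under 0.05. The 7 comparisons share the same 5 vehicle mice.

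**Figure D1:**
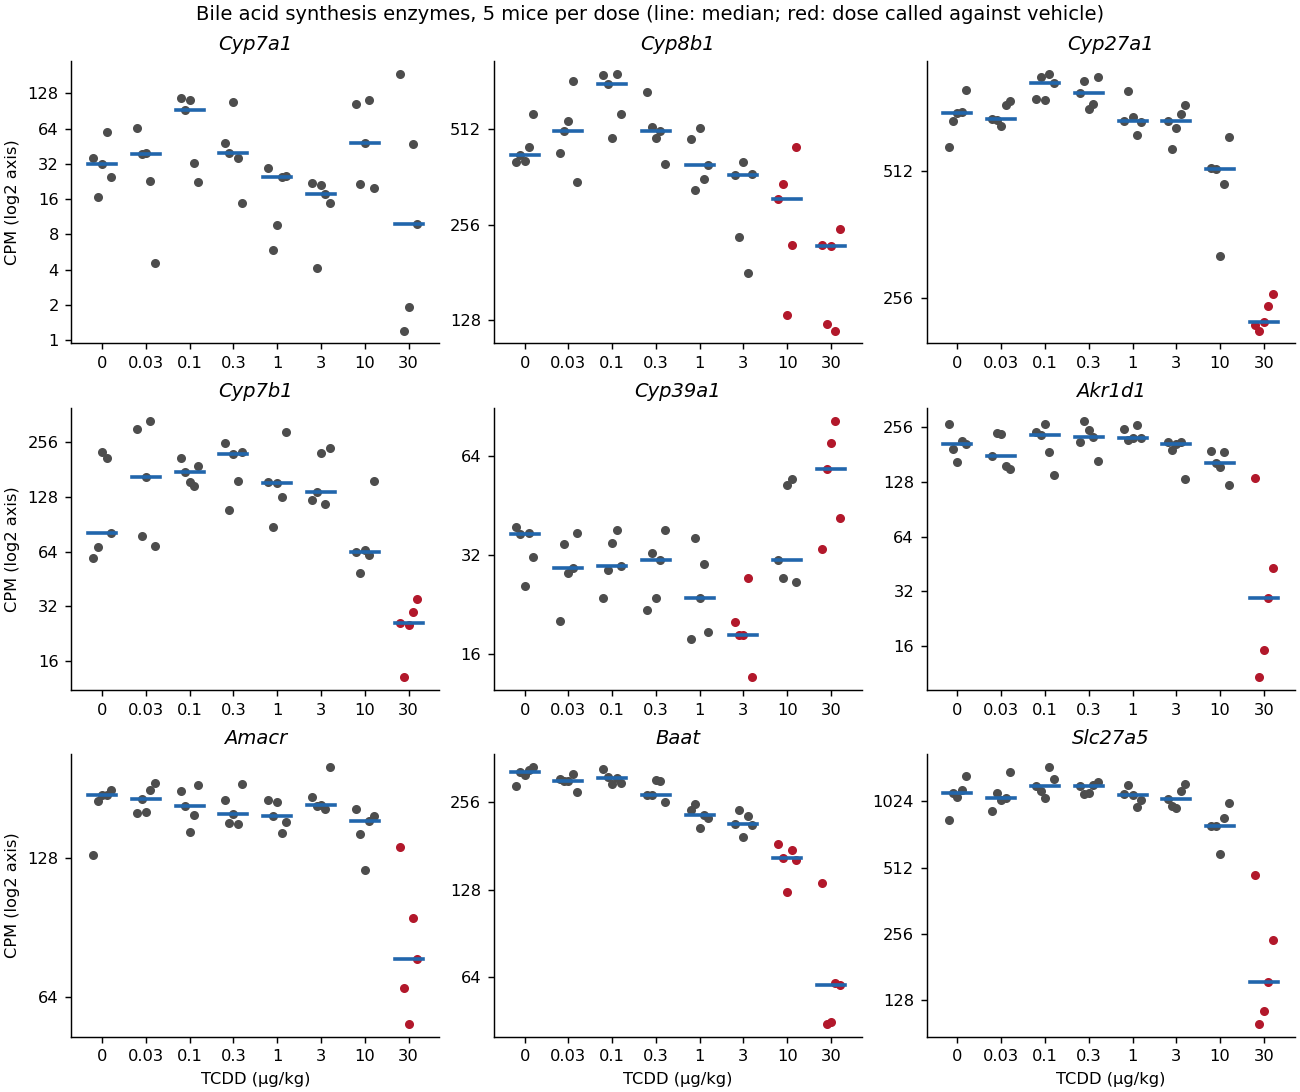
Level in CPM (counts per 1 M counts of the library, log2 axis) of the 9 enzymes tested, by TCDD dose; each point is 1 mouse, the blue line is the median of 5 and red marks a dose called against vehicle. Baat steps down from 1 μg/kg on, Cyp27a1, Akr1d1 and Slc27a5 drop mainly between 10 and 30 μg/kg, Cyp39a1 dips at 3 μg/kg and is highest at 30, and Cyp7a1 spreads from 1.21 to 188 CPM at 30 μg/kg.

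Cyp7a1, the rate-limiting enzyme of the classical pathway, was not called at any dose, and its spread between mice at 30 μg/kg was the widest of the enzymes. In CPM, counts per 1 M counts of the library after trimmed mean of M-values (TMM) scaling, the 5 vehicle mice had 35.9, 16.8, 32.2, 59.8 and 24.9. The 5 mice at 30 μg/kg had 188, 1.21, 1.91, 47.1 and 9.82, so that 3 fell below every vehicle mouse and 1 lay above all of them. The highest mouse exceeded the lowest 156-fold at 30 μg/kg and 3.56-fold in vehicle, and the SD of log2 CPM was 3.02 against 0.67. The lowest of these mice still had 29 reads, so its low level was counted and not missing. The fitted log2 fold change was 0.54, with a 95% interval of -1.02 to 2.11 and an adjusted p of 0.574. Its sign rested on replicate 1, the mouse with 188 CPM: without it the log2 fold change was -1.18. The sign also differed between the consecutive runs of title numbers into which the libraries fall, at 1.72 in the first (3 vehicle and 2 treated mice) and -1.13 in the second (2 vehicle and 3 treated mice), and neither was called. At 1 and 3 μg/kg all 5 mice lay under the vehicle mean of 33.9 CPM, with log2 fold changes of -0.83 and -1.09, but adjusted p was 0.718 and 0.451. At 10 μg/kg the mice had 105, 21.7, 48.2, 113 and 20.1 CPM, of which 2 lay above the vehicle range and the rest within it.

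Cyp8b1, the hydroxylase needed for cholic acid, was called lower at 10 and 30 μg/kg. Its mean was highest at 0.1 μg/kg, at 657 CPM against 451 in vehicle. The vehicle mice had 404, 425, 406, 449 and 571 CPM, and the 30 μg/kg mice had 220.4, 125, 219, 119 and 248 CPM, so the groups did not overlap. Cyp8b1 was repressed 2.42-fold at 30 μg/kg (log2 fold change -1.27, SE 0.25, adjusted p = 3.33e-05). It was repressed 1.55-fold at 10 μg/kg (adjusted p = 0.0443), with values of 309, 343, 133, 221 and 449 CPM, of which 4 lay below every vehicle mouse. This call was marginal: it was lost on leaving out any of 7 of the 10 libraries compared, in each run alone, with no filter on low counts, with these groups fitted alone and when libraries were scaled to total counts (log2 fold change -0.45). At 3 μg/kg the log2 fold change was -0.53 (adjusted p = 0.179).

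Promoter sequence could be looked at for Cyp8b1, Cyp27a1, Akr1d1 and Hsd3b7, which have a window of 300 bases (250 before and 50 after the start) in RefSeq on GRCm38.p6. The other members, Cyp7a1, Cyp7b1, Cyp39a1, Amacr, Baat and Slc27a5, have none in that table. The core motif of AhR response elements, GCGTG on either strand, was in 0 of the 4 windows, while 32.4% of all 32851 windows held it. The half-site of LRH-1 (Nr5a2), CAAGGNCA on either strand, was in 1 of the 4 and in 6.71% of all windows. That one was Cyp8b1, whose 250 bases before the start are shown for this match (GRCm38.p6, chr9:121916306-121916555, minus strand), with the match in capitals, beginning 60 bases before the start. Of 3 shorter or stricter forms of the half-site also searched, AAGGNCA was in 2 of the 4 windows (20.3% of all), AGGTCA in 1 (16.3%) and AAGGTCA in 0 (4.72%), and 1 of the AAGGNCA matches lies inside the match shown. The matches are a description of letters in these windows, and binding was not measured.
Cyp8b1: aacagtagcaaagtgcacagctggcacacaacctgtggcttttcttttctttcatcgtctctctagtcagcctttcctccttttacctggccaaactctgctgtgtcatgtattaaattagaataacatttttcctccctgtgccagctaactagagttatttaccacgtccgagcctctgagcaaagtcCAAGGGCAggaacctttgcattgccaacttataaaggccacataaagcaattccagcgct

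Of the hydroxylases of the alternative pathway among these enzymes, 2 were repressed at 30 μg/kg and 1 was induced. Cyp27a1, the mitochondrial sterol hydroxylase that also starts side chain oxidation, had 584, 673, 704, 709 and 798 CPM in vehicle and 221, 215, 225, 246 and 262 CPM at 30 μg/kg. These groups were far apart, and the treated mice varied least of the enzymes (SD of log2 CPM 0.12). Cyp27a1 was repressed 2.97-fold (log2 fold change -1.57, SE 0.11, adjusted p = 1.77e-14), and the value was -1.60 and -1.65 in each run alone. At 10 μg/kg it had an adjusted p of 0.000511 but a fold of 1.41, under the threshold, with 4 of 5 mice below every vehicle mouse. At 0.1 μg/kg the sign was the opposite, with log2 fold changes of 0.23 for Cyp27a1 and 0.54 for Cyp8b1, but unadjusted p of 0.0417 and 0.0314 by edgeR did not pass adjustment.

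Cyp7b1 hydroxylates the oxysterols of this pathway and varied widely without treatment, with vehicle mice at 58.8, 67.9, 225, 209 and 81.6 CPM. All mice at 30 μg/kg lay below that range, at 25.9, 13.1, 25.2, 29.7 and 35.2 CPM. Cyp7b1 was repressed 4.98-fold (log2 fold change -2.32, SE 0.41, adjusted p = 9.65e-06). At the next lower dose, 10 μg/kg, 4 mice had 48.7 to 65.6 CPM and the fifth, replicate 5, had 157 CPM. With that mouse Cyp7b1 was not called at 10 μg/kg (log2 fold change -0.70, adjusted p = 0.182), and without it Cyp7b1 was called (-1.10, adjusted p = 0.0361). The call of Cyp27a1 at 10 μg/kg also appeared without this mouse (-0.59), which raised the count there from 2 to 4 of 9.

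Cyp39a1, which hydroxylates the oxysterol that Cyp46a1 makes, was the enzyme that changed in both directions. Vehicle mice had 39.1, 37.0, 25.8, 37.4 and 31.6 CPM. At 3 μg/kg the mice had 20.1, 18.3, 18.3, 27.3 and 13.6 CPM, of which 4 lay below every vehicle mouse, a repression of 1.75-fold (log2 fold change -0.81, SE 0.24, adjusted p = 0.0210). At 30 μg/kg the mice had 33.5, 58.2, 69.9, 81.9 and 41.4 CPM, of which 4 lay above every vehicle mouse, an induction of 1.67-fold (log2 fold change 0.74, SE 0.23, adjusted p = 0.00651). The induction lost its call without the mouse at 81.9 CPM, replicate 4 (0.55), and in the first run alone (0.42, against 0.87 in the second). The repression at 3 μg/kg lost its call without vehicle replicate 1 (-0.75), without 3 μg/kg replicate 5 (-0.70) and in each run alone (-0.86 and -0.74).

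**Figure D2:**
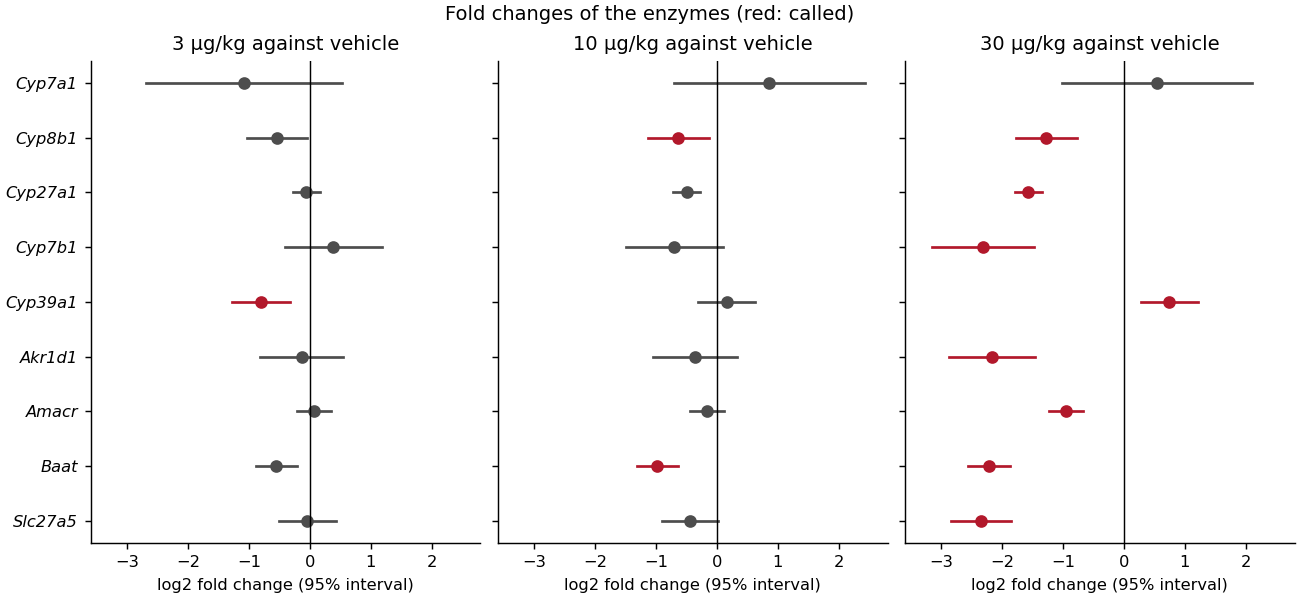
Log2 fold change against vehicle of the 9 enzymes tested at 3, 10 and 30 μg/kg, with 95% intervals from the edgeR fit and called enzymes in red. At 30 μg/kg 7 enzymes lie to the left of 0 and Cyp39a1 to the right, and the interval of Cyp7a1, -1.02 to 2.11, spans 0.

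Among the enzymes of the ring and the side chain, Akr1d1 and Amacr were repressed at 30 μg/kg and at no lower dose. Akr1d1, the steroid reductase that gives the ring its bent shape, had 266, 195, 166, 215 and 206 CPM in vehicle and 135, 10.8, 15.3, 29.5 and 43.0 CPM at 30 μg/kg. No treated mouse reached the vehicle range, but replicate 1 stood well above the other four. Akr1d1 was repressed 4.49-fold (log2 fold change -2.17, SE 0.35, adjusted p = 1.98e-06), and without replicate 1 the log2 fold change was -3.09. In the first run alone it missed the call (-1.54, adjusted p = 0.0507), against -2.87 in the second. Amacr, the racemase of the side chain, had 130, 171, 176, 175 and 180.1 CPM in vehicle and 135, 66.9, 55.9, 95.2 and 77.5 CPM at 30 μg/kg. The groups overlapped through 1 mouse on each side, vehicle replicate 1 and 30 μg/kg replicate 1. Amacr was repressed 1.93-fold (log2 fold change -0.95, SE 0.14, adjusted p = 2.39e-07), and its call was lost when libraries were scaled to total counts alone (-0.48).

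The reads of Hsd3b7, the dehydrogenase between the classical hydroxylation and the ring reduction, could not be assigned to 1 gene. In the GENCODE M21 annotation Gm49388 overlaps Hsd3b7 on the same strand and 9430064I24Rik overlaps it on the opposite strand. A read that falls in several genes is set aside as ambiguous, so the 0 counts of Hsd3b7 do not show that it was silent. In the strand-specific column, where only genes on 1 strand compete, Hsd3b7 had 26 to 110 counts and 9430064I24Rik had 1351 to 3768, while Gm49388 had 0. The libraries keep no strand, so reads of the 2 genes cannot be told apart in that column either. In that column 9430064I24Rik averaged 342 ± 37.0 CPM (SD, n = 5) in vehicle against 138 ± 28.1 at the highest dose, a log2 fold change of -1.31 (SE 0.10, adjusted p = 1.93e-13). Hsd3b7 itself averaged 6.60 ± 1.87 and 2.58 ± 0.54 CPM (SD, n = 5), a log2 fold change of -1.35 (SE 0.27, adjusted p = 5.42e-05). Both values describe the locus, were taken after the zero counts had been seen, and are not counted among the enzymes called. For the 9 enzymes tested the column held 50.0% to 50.8% of their unstranded counts.

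Both enzymes of conjugation were strongly repressed. Slc27a5, the ligase that activates bile acids with coenzyme A, had 841, 1112, 1071, 1152 and 1329 CPM in vehicle and 475, 99.5, 114, 155 and 239 CPM at 30 μg/kg. The groups did not overlap, and replicate 1 was again the least changed. Slc27a5 was repressed 5.09-fold (log2 fold change -2.35, SE 0.24, adjusted p = 1.24e-10), which became -2.86 without replicate 1. Its log2 fold change at 10 μg/kg was -0.45 (adjusted p = 0.139), with 3 of 5 mice below every vehicle mouse.

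Baat, which joins the activated bile acid to taurine or glycine, lay below every vehicle mouse from 1 μg/kg on. Vehicle mice had 292, 326, 317, 329 and 337 CPM, the tightest vehicle group of the enzymes (SD of log2 CPM 0.08). All 5 mice lay below every vehicle mouse at 1 μg/kg (209 to 251 CPM), at 3 μg/kg (194 to 240.5 CPM), at 10 μg/kg (126 to 184 CPM) and at 30 μg/kg (135, 44.2, 45.04, 61.3 and 60.0 CPM). The log2 fold changes at these doses were -0.47, -0.55, -0.98 and -2.21, with adjusted p of 0.115, 0.0245, 1.33e-05 and 1.38e-13. Baat was called at 10 and 30 μg/kg, where it was repressed 1.97-fold and 4.64-fold, and its fold of 1.47 at 3 μg/kg was under the threshold. The call at 10 μg/kg was lost in the first run alone (log2 fold change -0.85, adjusted p = 0.0595), against -1.11 in the second (adjusted p = 7.69e-05).

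Most of the repression lay between the highest pair of doses. At 30 against 10 μg/kg 7 of 9 enzymes were called lower, where 10.6% of all genes were, and none was called higher. The log2 fold changes of this step were -1.90 for Slc27a5, -1.81 for Akr1d1, -1.62 for Cyp7b1, -1.23 for Baat, -1.07 for Cyp27a1, -0.79 for Amacr and -0.64 for Cyp8b1. Cyp39a1 was at 0.57 (adjusted p = 0.0526) and Cyp7a1 at -0.31 (adjusted p = 0.799). Without 30 μg/kg replicate 1 both passed, Cyp39a1 higher (0.71, adjusted p = 0.0124) and Cyp7a1 lower (-2.03, adjusted p = 0.0300). Calls over all genes rose as well, to 2104 lower and 2012 higher of 15666, from 1623 and 1626 of 15373 with that mouse. In the first run alone this step gave 1 enzyme called, Cyp27a1, where 506 of 15814 genes were called. In the second it gave 6, where 2980 of 16015 genes were called. A linear trend over the 8 ordered dose steps, with adjusted p under 0.05 and no fold threshold, was found for the same 7 enzymes, all downward. By that rule 57.7% of all genes had a trend and 26.1% had a downward one. The steepest slope was that of Baat, -0.24 log2 units per dose step (SE 0.03, adjusted p = 1.46e-08), and Cyp39a1 narrowly missed the threshold at 0.07 (adjusted p = 0.0537). In the first run alone, 3 enzymes kept a trend, Cyp8b1, Cyp27a1 and Baat, where 5875 of 15814 genes had one.

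Per kilobase of transcript, the vehicle levels of the enzymes spanned from 8.13 to 452 CPM per kb. In falling order they were Slc27a5 (452 ± 71.9), Cyp27a1 (319 ± 35.4), Cyp8b1 (231 ± 35.6), Baat (165 ± 8.96), Akr1d1 (72.4 ± 12.7), Amacr (63.9 ± 7.90), Cyp7b1 (59.4 ± 37.7), Cyp39a1 (11.2 ± 1.79) and Cyp7a1 (8.13 ± 3.88), each a mean with SD over 5 mice. The ranges of neighbours in this order did not overlap between Cyp8b1 and Baat, Baat and Akr1d1, or Cyp7b1 and Cyp39a1, and overlapped for the other five pairs of neighbours. At 30 μg/kg Cyp27a1 had the highest mean (108 ± 9.15), followed by Cyp8b1 (95.5 ± 30.8) and Slc27a5 (88.8 ± 63.4). Below them came Baat (35.6 ± 19.4), Amacr (33.1 ± 11.9), Cyp39a1 (18.7 ± 6.52), Akr1d1 (16.2 ± 17.6), Cyp7b1 (11.9 ± 3.76) and Cyp7a1 (11.9 ± 19.0), and the ranges of every pair of neighbours overlapped. Transcript lengths came from GENCODE M21, which may not be the authors' annotation, so these orders are descriptive.

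**Figure D3:**
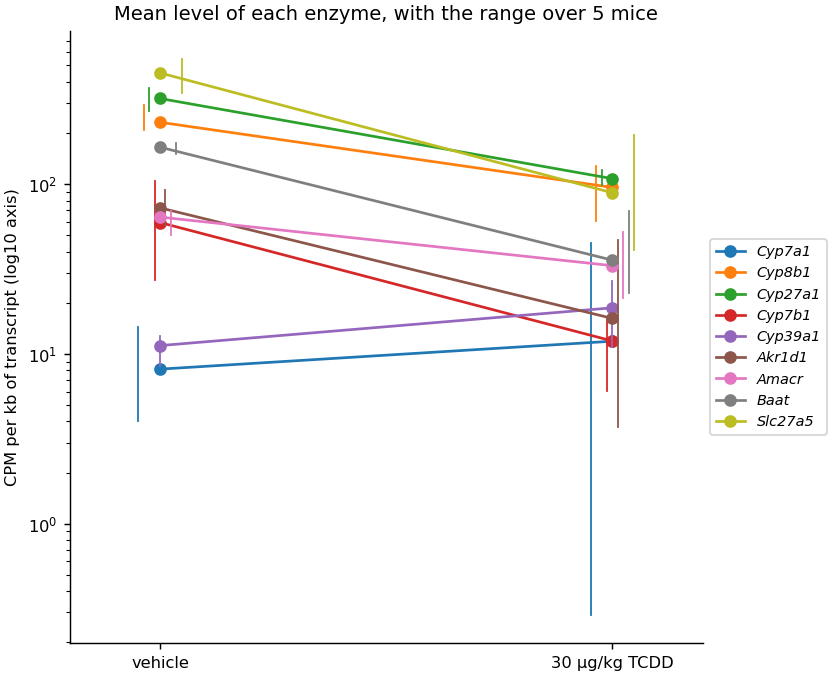
Mean level of the 9 enzymes in CPM per kb of transcript (log10 axis) in vehicle and at 30 μg/kg TCDD; thin vertical lines give the range over 5 mice. The span between enzymes narrows from 8.13 to 452 CPM per kb in vehicle to 11.9 to 108 at 30 μg/kg, and Slc27a5 moves from rank 1 to rank 3.

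Cyp8b1, Cyp7b1 and Cyp27a1 were each set against Cyp7a1 as log2 ratios of counts within a library. Of these, Cyp8b1 acts in the same classical pathway as Cyp7a1. None of the 21 comparisons (3 ratios, 7 doses) passed after adjustment by exact 2-sided permutation tests, whose smallest possible p with 5 against 5 is 0.00794. A lone comparison at that smallest p could not have passed adjustment over 21 tests. The outcome therefore does not show that the ratios were unchanged. The ratio of Cyp7b1 to Cyp7a1 had the lowest p, 0.0238 at 3 μg/kg and 0.0317 at 1 μg/kg (exact permutation, both adjusted p = 0.333). It averaged 1.81 ± 0.75 in vehicle, 3.22 ± 0.79 at 1 μg/kg and 3.52 ± 1.02 at 3 μg/kg (SD, n = 5). At 30 μg/kg the differences from vehicle were 0.08 for Cyp8b1, -0.74 for Cyp7b1 and -0.16 for Cyp27a1, small beside SDs of 3.01, 2.78 and 3.01 between the treated mice. These ratios could not be resolved with the spread of Cyp7a1 at this dose.

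Within dose groups, some pairs of enzymes varied together, and the share of all gene pairs that did so was not computed. Deviations of log2 CPM from the dose group mean were correlated over the 40 libraries for the 36 pairs of enzymes, with p from 100000 permutations of libraries within groups, and 10 pairs had an adjusted p under 0.05 by Pearson's r. The largest values were those of Baat with Slc27a5 (r = 0.82, permutation adjusted p = 0.0183), Amacr with Slc27a5 (r = 0.81, permutation adjusted p = 0.00672) and Akr1d1 with Baat (r = 0.80, permutation adjusted p = 0.0229). Their Spearman's rho was 0.35, 0.58 and 0.27 (permutation adjusted p = 0.187, 0.0113 and 0.263), and r without the 2 libraries farthest from the median was 0.50, 0.61 and 0.42. In the 30 libraries from vehicle to 3 μg/kg, r was 0.13 for Baat with Slc27a5, 0.68 for Amacr with Slc27a5 and 0.11 for Akr1d1 with Baat. The first and the last of these relations therefore rested on the 2 highest doses, where 30 μg/kg replicate 1 was high for all 4 enzymes. Within the first and the second run, r was 0.96 and 0.54 for Baat with Slc27a5, 0.93 and 0.61 for Amacr with Slc27a5, and 0.91 and 0.55 for Akr1d1 with Baat, none with an adjusted p under 0.05. When libraries were scaled to total counts alone, Akr1d1 with Baat kept its call (r = 0.83), and the pairs of Baat and of Amacr with Slc27a5 lost it (r = 0.73 and 0.69, permutation adjusted p = 0.160 for both). Other pairs of these enzymes turned their sign with the doses included, and were chosen after their values were seen. Akr1d1 with Amacr had r = 0.48 over 40 libraries (rho = -0.18, permutation adjusted p = 0.332 and 0.542) and r = -0.69 over the 30 up to 3 μg/kg (rho = -0.59, permutation adjusted p = 0.00252 and 0.0227). Akr1d1 with Slc27a5 had r = 0.66 over 40 (rho = -0.04, permutation adjusted p = 0.162 and 0.925) and r = -0.53 over the 30 (rho = -0.53, permutation adjusted p = 0.0303 and 0.0390).

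Cyp7a1 and Cyp8b1, which act in the same pathway, were not correlated within dose groups (r = 0.09, rho = -0.02, permutation adjusted p = 0.682 and 0.970). Their r was 0.71 in the first run and -0.25 in the second, and without the 2 farthest libraries it was -0.07. Cyp7a1 did go with Akr1d1 (r = 0.78, rho = 0.60, permutation adjusted p = 0.00324 and 0.0108), with 0.58 in the 30 libraries up to 3 μg/kg and 0.86 and 0.72 in the first and second run, where r had a permutation adjusted p of 0.406 and 0.103. Cyp39a1 ran opposite to Cyp8b1 (r = -0.61, rho = -0.59, permutation adjusted p = 0.00672 and 0.0108) and to Cyp7b1 (r = -0.50, rho = -0.51, permutation adjusted p = 0.0105 and 0.0113), and r without the 2 farthest libraries was -0.55 and -0.45. For Cyp39a1 with Cyp8b1, r was -0.49 and -0.75 in the first and second run, without an adjusted p under 0.05. These 3 pairs lie outside the rule for named pairs and were chosen after their values were seen.

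**Figure D4:**
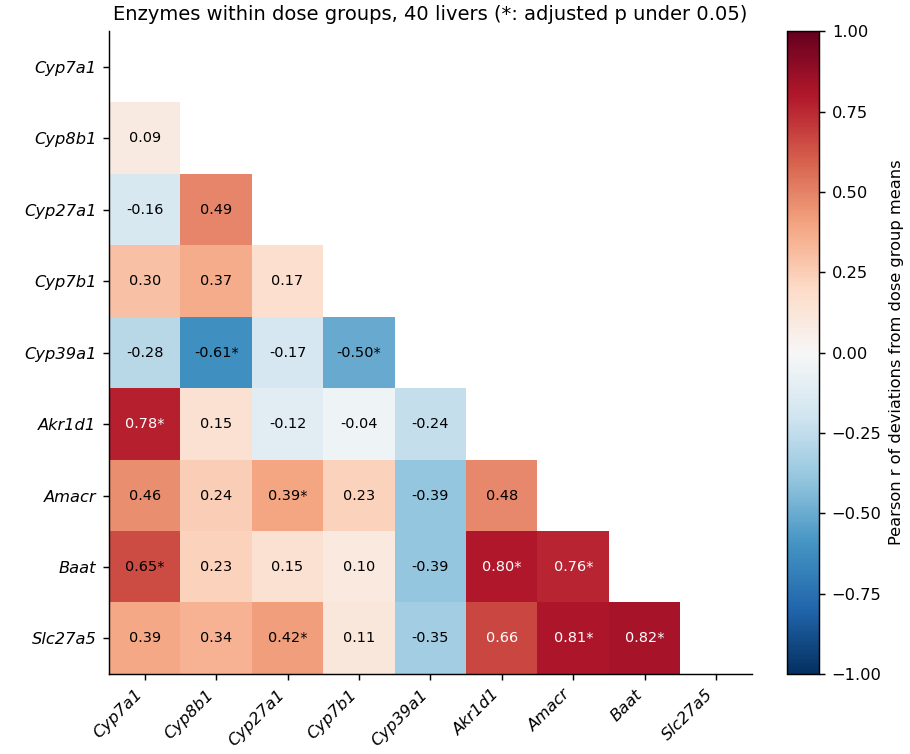
Pearson's r for each of the 36 pairs of enzymes, computed over 40 livers from deviations of log2 CPM from the dose group mean; an asterisk marks an adjusted permutation p under 0.05. The pairs among Baat, Slc27a5, Amacr and Akr1d1 run from 0.48 to 0.82, and Cyp39a1 lies at -0.61 with Cyp8b1.

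Over all 40 libraries, dose differences included, the genes most like each enzyme were found by Pearson's r of log2 CPM, as a description. Slc27a5 was closest to Dpys, Serpinf1 and F2 (0.99 each), Baat to Sdc2 and Otc (0.99 each), and Akr1d1 to Car5a, Sc5d and Ugt2a3 (0.97 each). Cyp27a1 was closest to Ak3, Hibadh and Marc1 (0.97, 0.97 and 0.96) and Amacr to Acbd4, Lap3 and Hagh (0.96 each). Cyp7b1 was closest to C6, Selenbp2 and Mup14 (0.95, 0.92 and 0.92), and Cyp8b1 to Ppp2r5a, Prob1 and Atg7 (0.89, 0.86 and 0.85). Cyp39a1 was closest to Cyp4a10, Map4k4 and Nkd1 (0.83, 0.81 and 0.81), and Cyp7a1 to Mup-ps13, A230050P20Rik and Gm37729 (0.74, 0.72 and 0.72). The libraries share doses, and Mup14, Mup-ps13 and Selenbp2 belong to families of near-identical copies whose reads are uncertain.

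Of 11 other genes of bile acid synthesis, 10 were tested and 6 were called at 30 μg/kg, all lower, with a median log2 fold change of -0.93 for the 10; of all genes, 42.1% were called at that dose and 18.9% were called lower. Cyp2c70, which forms the muricholic acids of mice, fell most (-3.73, SE 0.31, adjusted p = 8.43e-13), followed by Akr1c6, a steroid dehydrogenase of the ring (-2.27). Of the genes of peroxisomal side chain shortening, the thiolase Scp2 was at -1.34, the acyl-CoA synthetase Slc27a2 at -1.29 and the membrane transporter Abcd3 at -0.65. Cyp46a1, the cholesterol hydroxylase upstream of Cyp39a1, was at -1.22 (adjusted p = 0.00269). Its level was low, at 11 to 66 reads per library, and its call was lost in the first run alone (-0.61, adjusted p = 0.385). Acox2, Hsd17b4, Acot8 and Akr1c14 were not called, and Ch25h did not pass the filter but was called higher when no filter was applied. Akr1c6 was called lower from 3 μg/kg on, and Slc27a2 and Cyp2c70 from 10 μg/kg on. When libraries were scaled to total counts alone, Abcd3 (-0.15) and Cyp46a1 (-0.74, adjusted p = 0.0520) lost their calls, and Acox2 (0.63) and Akr1c14 (0.95) were called higher.

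Of 12 regulators, 11 were tested and 9 were called at 30 μg/kg, 8 lower and 1 higher, with a median log2 fold change of -0.81, where 18.9% of all genes were called lower and 23.2% higher. In the feedback pathway, the corepressor Nr0b2 fell most (-3.25, SE 0.39, adjusted p = 4.54e-09), and the receptors Nr1h4 (-0.81), Fgfr4 (-1.27) and the coreceptor Klb (-1.20) were lower too. The nuclear receptors Ppara (-1.87), Nr1h3 (LXRα, -0.78) and Nr5a2 (LRH-1, -0.71) and the corepressor Prox1 (-1.61) fell. Dbp, an output factor of the circadian clock that activates Cyp7a1, rose (1.24, SE 0.52, adjusted p = 0.0414). It was near the floor, with 1 to 42 reads per library and means of 0.52 CPM in vehicle and 1.26 at 30 μg/kg. In the GENCODE M21 annotation Sphk2 overlaps it on the opposite strand. This call of Dbp was lost with run as a covariate (1.18, adjusted p = 0.0523), with no filter on low counts (1.26, adjusted p = 0.0750), in the strand-specific column (0.43, adjusted p = 0.203), in each run alone (1.27 and 1.23, adjusted p = 0.0747 and 0.308) and without any 1 of 7 of the 10 libraries compared. When libraries were scaled to total counts alone, 6 regulators were called, and Nr1h4 (-0.33), Nr5a2 (-0.22) and Nr1h3 (-0.29) lost their calls. Hnf4a and Mafg were not called, and Fgf15, made in the intestine, was at 0 in all 40 libraries. Gm26793 and Gm39119 overlap Fgf15 on the opposite strand in that annotation, so its 0 counts alone do not show that it was silent. Of the regulators, Klb was the one called at 10 μg/kg (-0.96).

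**Figure D5:**
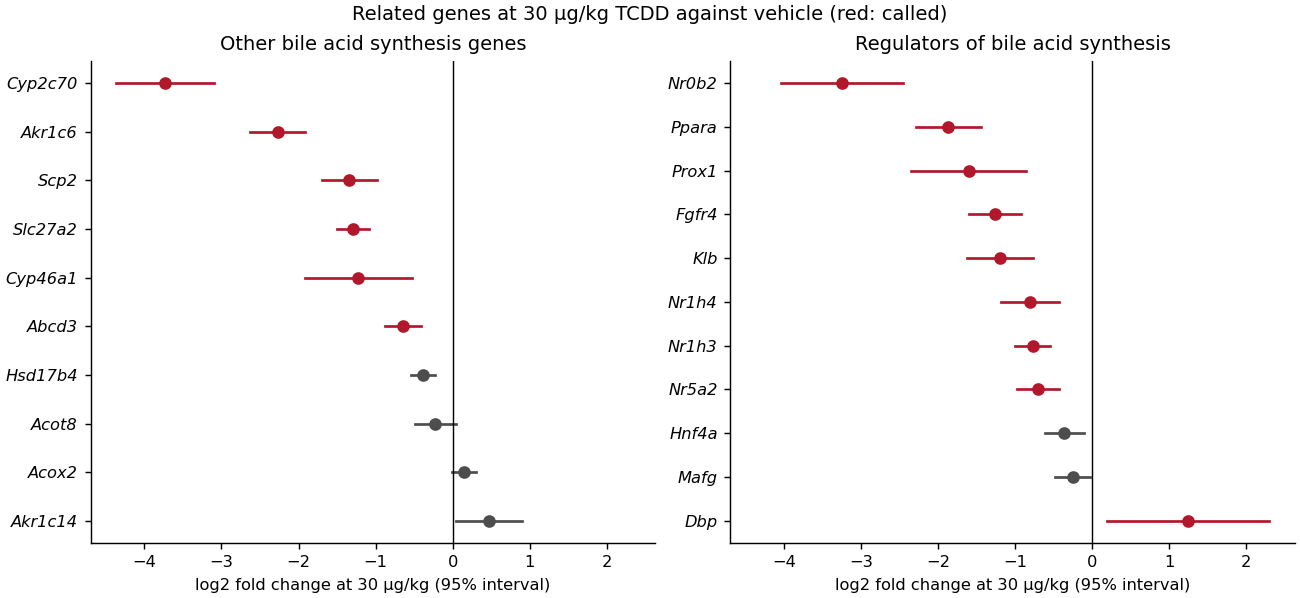
Log2 fold change at 30 μg/kg TCDD against vehicle, with 95% intervals from the edgeR fit, for 10 other synthesis genes and 11 regulators; red marks called genes. Cyp2c70 (-3.73) and Nr0b2 (-3.25) lie farthest to the left, and Dbp (1.24) is the called gene to the right of 0.

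Markers of the liver's cell types moved with dose beside these results. The summed level of 8 hepatocyte markers was 121424 to 147753 CPM in vehicle, 79082 to 131471 at 10 μg/kg and 37631 to 81757 at 30 μg/kg, and 30 μg/kg replicate 1 had the highest sum of its group. Their log2 fold changes at 30 μg/kg ran from -3.20 (Apoa1) to -0.32 (Trf), with a median of -1.51, and the 7 repressed enzymes lay within that range (-2.35 to -0.95). All 6 macrophage markers were called higher at 30 μg/kg (summed 130.1 to 182 CPM in vehicle, 452 to 1124 at 30 μg/kg), as were 4 of 5 stellate (61.6 to 142 and 320 to 743), 3 of 5 endothelial (132 to 175 and 234 to 314) and all 4 lymphocyte markers (1.79 to 3.08 and 3.70 to 9.95). Of 5 cholangiocyte markers 4 were higher and Sox9 was lower (37.2 to 48.4 and 67.5 to 333 in sum), and both neutrophil markers tested, S100a8 and S100a9, were higher (0 to 1.04 and 6.76 to 26.7). Among these markers S100a8, S100a9 and Cd8a were at 0 in 1 vehicle library each, and Ly6g did not pass the filter. The part of cell composition in the repression of the enzymes was not tested.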

How the data were processed

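Liver RNA of 40 mice was sequenced as 150 bp paired-end reads. The deposited files hold, per library, raw counts of reads for each gene in the format of STAR, with an unstranded column and a column for each strand. The submitters' notes name FastQC 0.11.7, Trimmomatic 0.39, STAR 2.7.3a and the builds GRCm39 and mm10 with no role, so gene coordinates are not given. Counts on the first strand made up 50.0% to 50.3% of both, so the unstranded column was used. The 4 summary rows of each file (unmapped, multimapping, no feature and ambiguous reads) were left out, and reads in genes made up 71.3% to 80.8% of the total. A deposited table of normalized log2 values was not used here. Groups came from the labels. Each mouse gave 1 library, and p-values measure the spread between mice.

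Counts were fitted in R 4.3.3 with edgeR 4.0.16 (filterByExpr with minimum count 10 and minimum total count 15, trimmed mean of M-values (TMM) scaling, quasi-likelihood test with 1 mean per dose over all 40 libraries), with Benjamini-Hochberg adjustment over 15373 genes. The study's empirical Bayes posterior probability was replaced by this test, with the same fold threshold of 1.5. Log2 CPM used a prior count of 2, as did the ratios. Permutation tests used Python 3 with scipy, and the fits were tested on simulated data. Alternatives were DESeq2 1.42.0, other scalings, no filter, groups fitted alone, runs of title numbers (up to 27, 19 libraries; from 28, 21 libraries), no fold threshold, linear dose and leaving out each library. Run with order within title numbers, the strand-specific column in the fits, correlations within runs and the half-site searches were added after the data were seen. Named were all members, related genes called at 30 μg/kg, the 3 genes most like each member (1 of those for Baat is not reported here), and the 3 most correlated pairs with Cyp7a1 and Cyp8b1. The members and lists were chosen with earlier results of these data known.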

Additional observations from a re-analysis of the deposited data

Results flagged for a closer look

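In the 72 groups of 5 mice (9 enzymes, 8 doses), 5 had 1 mouse far from the others, its gap to the nearest mouse exceeding 0.71 of the group's range in log2 CPM. Chance flags about 1 in 20 groups. At 3 μg/kg, Cyp7a1 was low in replicate 2, at 4.12 CPM against 14.9 to 22.1 in the other mice (gap ratio 0.765). Akr1d1 was low in replicate 5 of that dose, at 134 CPM against 191 to 214 (0.763), and Amacr was high in the same mouse, at 202 CPM against 164 to 174 (0.716). At 10 μg/kg, Cyp7b1 was high in replicate 5, at 157 CPM against 48.7 to 65.6 (0.745), and this mouse decided the call of Cyp7b1 at that dose. In vehicle, Amacr was low in replicate 1, at 130.2 CPM against 171 to 180.1 (0.839).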

How the results depend on the processing

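No paired analysis was possible because the numbers of replicates follow accession order and link no mice between groups. The count of enzymes called at 30 μg/kg (8) lay between 6 (run 1 alone) and 9 (the strand-specific column), and counts at 0.03 to 1 μg/kg stayed at 0. The 9 includes Hsd3b7, which was tested in that column alone and whose value describes its locus. At 30 μg/kg, 4786 of 15814 genes were called in run 1 alone and 6296 of 15201 in the strand-specific column. The main fit called 6476 of 15373 genes there. Scaling to total counts moved the median log2 fold change of all genes to 0.22 at 10 and 0.52 at 30 μg/kg, and the genes called at 30 μg/kg from 2909 lower and 3567 higher to 1559 and 6402. With it 1 enzyme was called at 10 μg/kg (also 1 with no filter and with groups compared alone) and 5 pairs of enzymes were correlated. Genes called at 10 μg/kg were 3736 of 15373 with this scaling, 3297 of 32066 with no filter and 3131 of 13593 with groups alone. In run 1 alone 0 enzymes were called at 3 and at 10 μg/kg, 1 at 30 against 10 μg/kg, 3 had a trend and 0 pairs were correlated. Of the 15814 genes tested in that run, 429 and 1907 were called at 3 and 10 μg/kg. In run 2 alone 0 enzymes were called at 3 μg/kg, where 402 of 16015 genes were, and 1 pair was correlated. Without the fold threshold 2 were called at 3 μg/kg, where 1577 of 15373 genes were. Leaving out 1 library gave 0 to 2 enzymes called at 3 μg/kg, 1 to 4 at 10 μg/kg and a log2 fold change of Cyp7a1 at 30 μg/kg of -1.18 to 0.85, which was -1.13 in run 2 alone. At 30 μg/kg the difference of the log2 ratio from vehicle ran on leaving out 1 library from -0.64 to 1.00 for Cyp8b1 to Cyp7a1, from -1.39 to 0.24 for Cyp7b1 to Cyp7a1 and from -0.92 to 0.86 for Cyp27a1 to Cyp7a1. For Cyp8b1 it was -0.035 in the strand-specific column and -0.52 in run 1 alone, and for Cyp27a1 0.37 in run 2 alone. The cause of these changes was not tested, beyond the smaller number of mice in each run. With 5 mice a group, the spread of Cyp7a1 limits what can be resolved, and depth does not, since its lowest library at 30 μg/kg held 29 reads.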
